A study of Mus musculus with 12 samples.

Results

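The 45 genes described here are interferon-stimulated genes, that is, genes whose transcription is switched on when a cell receives an interferon signal. They were taken by symbol from the annotation of the array, and a probe was kept when its detection p-value was under 0.05 on at least 3 of 12 arrays. In all, 34 of the 45 genes were measured, 6 with sensing or signalling roles and 28 effectors, among 12380 features tested. Each of the 12 samples was read on an Illumina array, where beads carry DNA probes that capture labelled copies of its RNA. The cells came from mouse lung, carried the integrin CD11c, were separated on an AutoMACS magnetic sorter, and are called APC (antigen-presenting cells) in the labels. Mice had been exposed to nCB, nanoparticulate carbon black, a soot-like particle, or to PBS, the saline reference.

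The groups were knockout (Mir22-/-) mice with nCB, wild-type mice with nCB, knockout mice with PBS and wild-type mice with PBS, with 3 arrays each. All groups shared the strain B6(Cg)-Tyrc-2J/ J, a labelled age of 4 months, and an exposure of 1 month begun at 2 months of age. The promoter or tissue range of the deletion is not stated in the labels. Mir22 and its host transcript had no listed probe, so the genotype could not be checked on the deleted gene. The labels do not tie replicates to individual mice, so a p-value here measures spread among samples that may be technical. Itgax, which encodes CD11c, was detected on all 12 arrays by both of its probes, and between 31.4% and 35.0% of probes were detected per array.

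Interferons are secreted proteins that bind receptors on the cell surface. Type I interferon activates the kinases Jak1 and Tyk2, which phosphorylate Stat2 and so let it enter, with Irf9, a complex that binds a DNA element upstream of its target genes. The targets include sensors of foreign RNA and DNA, transcription factors that amplify the signal, and effector proteins that block steps of viral growth. In the lung, alveolar macrophages and dendritic cells both make and answer interferon.

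The element bound by the Stat and Irf9 complex has a core of GAAA, 2 free bases and GAAA, written GAAANNGAAA, or TTTCNNTTTC when read on the other strand. Promoter windows of RefSeq (build GRCm38.p6, 250 bases before to 50 after the gene start) were listed for 34 of the 45 genes, and 18 of these 34 (52.9%) held the core on either strand, against 1079 of 27025 genes (3.99%) in the whole table. The windows of 3 genes that rose with nCB in both genotypes and hold the core, and of Oasl2, which rose in both and does not, are shown. Among genes with a listed window that rose in both genotypes, they had the largest mean nCB estimates with and without the core. Usp18, whose mean of 1.81 was larger, had no listed window. Capitals mark the core.
Ifi205: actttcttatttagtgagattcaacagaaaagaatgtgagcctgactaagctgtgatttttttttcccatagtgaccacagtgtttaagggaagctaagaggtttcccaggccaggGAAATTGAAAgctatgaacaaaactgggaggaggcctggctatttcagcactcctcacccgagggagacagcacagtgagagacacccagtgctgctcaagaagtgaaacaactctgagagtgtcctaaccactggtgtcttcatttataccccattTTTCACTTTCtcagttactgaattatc
Rsad2: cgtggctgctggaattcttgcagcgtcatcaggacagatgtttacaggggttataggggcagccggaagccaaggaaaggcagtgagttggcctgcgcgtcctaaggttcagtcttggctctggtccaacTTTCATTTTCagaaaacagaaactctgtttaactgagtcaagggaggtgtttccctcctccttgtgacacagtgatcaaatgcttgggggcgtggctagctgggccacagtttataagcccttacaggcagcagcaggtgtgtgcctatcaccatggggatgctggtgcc
Isg15: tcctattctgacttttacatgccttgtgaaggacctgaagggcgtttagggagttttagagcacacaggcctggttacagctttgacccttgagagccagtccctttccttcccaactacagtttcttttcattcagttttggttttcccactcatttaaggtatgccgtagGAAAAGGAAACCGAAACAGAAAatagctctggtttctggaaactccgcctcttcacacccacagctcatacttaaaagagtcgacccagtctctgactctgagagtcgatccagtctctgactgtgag
Oasl2: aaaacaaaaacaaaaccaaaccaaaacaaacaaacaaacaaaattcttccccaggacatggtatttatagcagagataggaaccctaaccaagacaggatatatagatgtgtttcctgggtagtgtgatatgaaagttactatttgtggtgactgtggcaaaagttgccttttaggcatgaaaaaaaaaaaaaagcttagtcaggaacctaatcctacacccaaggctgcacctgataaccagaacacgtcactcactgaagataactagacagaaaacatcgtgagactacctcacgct
These windows lie at chr1:174031706-174032005 (Ifi205, minus strand), chr12:26456403-26456702 (Rsad2, minus strand), chr4:156200769-156201068 (Isg15, minus strand) and chr5:114896684-114896983 (Oasl2, plus strand), each printed along the strand of its gene. Ifi205 holds 2 cores, beginning at bases 117 and 274 of the window. The one at base 274 is read on the opposite strand and lies after the gene start. Rsad2 holds 1, read on the opposite strand and beginning at base 131. Isg15 holds 3 that overlap, beginning at bases 173, 179 and 185.

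The deletion removes the gene of miR-22, a microRNA that pairs with messenger RNAs through its seed, bases 2 to 8, shown in capitals. Its mature forms are listed by RefSeq (GRCm38.p6, plus strand) at chr11:75463772-75463793 and chr11:75463734-75463755 and are printed to show which sequences the knockout lacks.
mmu-miR-22-3p: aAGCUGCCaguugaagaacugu
mmu-miR-22-5p: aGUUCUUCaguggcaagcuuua

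Many effector genes rose with carbon black relative to PBS, among them Usp18, Oasl2, Rsad2, Ifi205 and Isg15 in both genotypes. A call means an adjusted p under 0.05 from limma, by Benjamini-Hochberg over all 12380 features. In knockout cells, 10 of the 34 genes rose with nCB, against 8.69% of all features, and 0 fell, against 7.29%. In wild-type cells 18 rose, against 8.88% of all features, and 1 fell, against 9.22%. The lists of 10 and 18 shared 8 genes, and 5.68% of all features rose in both genotypes. The median log2 difference over the 34 genes was 0.29 in knockout and 0.49 in wild-type cells, beside −0.01 and −0.02 over all features. Estimates were below 0 for 7 genes in knockout cells, against 52% of all features, and for 6 in wild-type cells, against 54%. In knockout cells 13 genes had nCB arrays all above the PBS arrays, against 15.2% of all features, and in wild-type cells 19 did, against 15.4%. In RNA of a mixed cell population, a change in the number of cells of a type and a change in RNA per cell cannot be told apart.

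**Figure D1:**
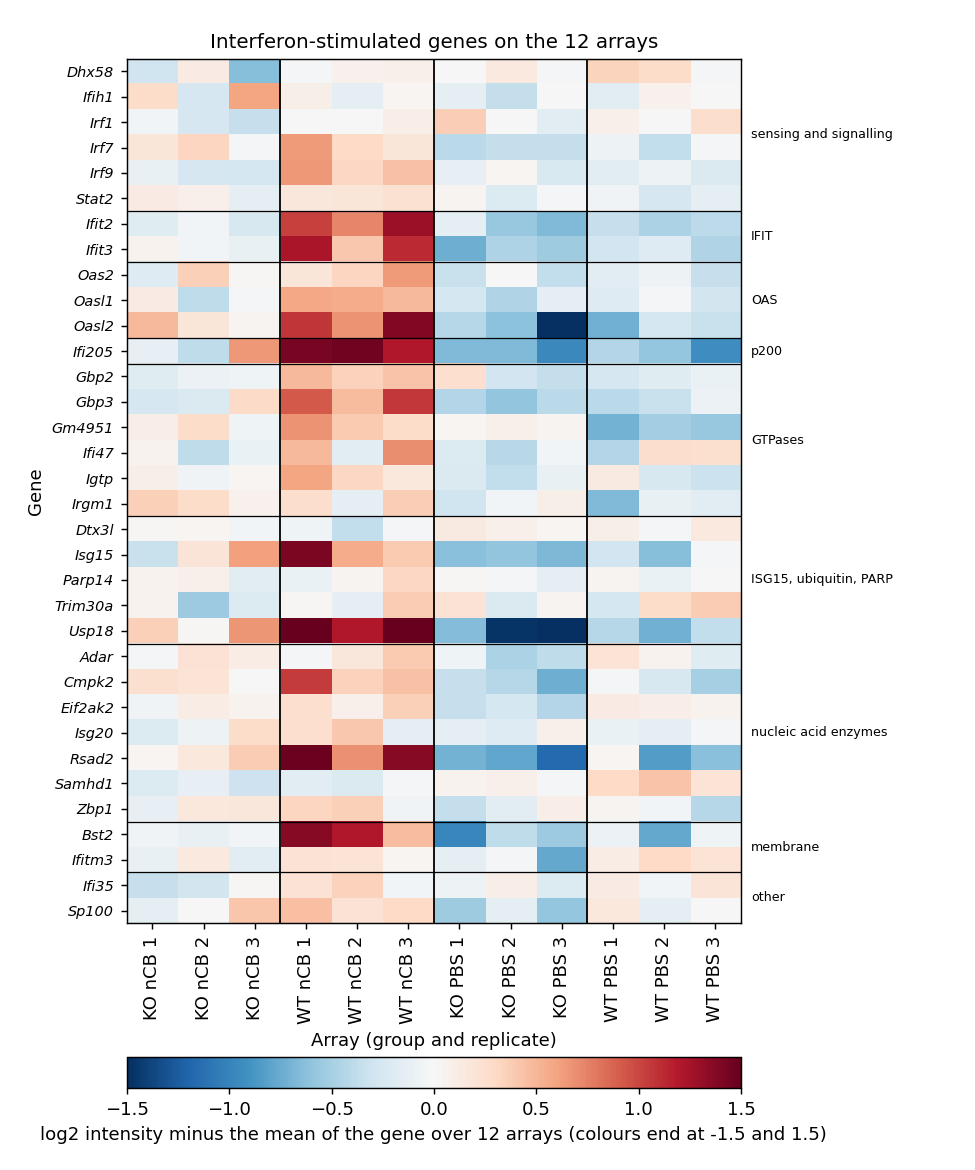
Rows are the 34 measured genes grouped by role and columns are the 12 arrays in the order knockout nCB, wild-type nCB, knockout PBS and wild-type PBS; colour is the log2 intensity minus the mean of that gene over 12 arrays, and colours end at −1.5 and 1.5. The wild-type nCB columns are the darkest red for the IFIT genes, Oasl2, Ifi205, Usp18, Rsad2 and Bst2, and the PBS columns of these genes are mostly blue.

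The knockout count of 10 was 5 without knockout nCB array 2, 5 without knockout nCB array 3 and 4 without knockout PBS array 3, and 5 or 6 under 6 other ways of scaling, correcting or filtering the arrays. The wild-type count of 18 ranged from 15 to 18 when any 1 array was left out, and was 10 when only probes detected on all 12 arrays were kept, which also leaves fewer of these genes to test.

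Among sensing and signalling genes, 1 of 6 rose with nCB in knockout cells, against 8.69% of all features, and 3 of 6 in wild-type cells, against 8.88%. Irf7, a transcription factor that amplifies interferon production, had log2 intensities of 4.86, 5.00 and 4.65 on the knockout nCB arrays, 5.31, 4.98 and 4.86 on the wild-type nCB arrays, 4.27, 4.32 and 4.32 on the knockout PBS arrays and 4.60, 4.31 and 4.66 on the wild-type PBS arrays. All nCB arrays of a genotype lay above its PBS arrays. Irf7 rose by 0.53 ± 0.14 (SE from limma, n = 3 per group) in knockout cells (limma adjusted p = 0.0166) and by 0.53 ± 0.14 in wild-type cells (limma adjusted p = 0.0152). Its probe was not detected on the 3 knockout PBS arrays, so the knockout change is a bound of at least 1.21-fold, from the lowest detected intensity of each array. The knockout call was lost under 3 of 23 settings, including the omission of knockout nCB array 2, and the wild-type call under 4 of 23, including the omission of wild-type nCB array 1 or wild-type PBS array 2.

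Irf9, the DNA-binding subunit of the Stat complex, read 6.83, 6.70 and 6.67 in knockout nCB cells, 7.59, 7.25 and 7.38 in wild-type nCB cells, 6.82, 6.98 and 6.71 in knockout PBS cells and 6.77, 6.87 and 6.73 in wild-type PBS cells. The wild-type nCB arrays stood above the other 9, which overlapped. With nCB, the difference of Irf9 was −0.10 ± 0.12 in knockout cells (limma adjusted p = 0.633), and it rose by 0.62 ± 0.12 in wild-type cells (limma adjusted p = 0.00162). A second Irf9 probe gave −0.07 in knockout and 0.61 in wild-type cells. Stat2, which carries the transcriptional activation domain of the complex, read 5.62, 5.58 and 5.36 in knockout nCB, 5.66, 5.68 and 5.73 in wild-type nCB, 5.53, 5.29 and 5.48 in knockout PBS and 5.44, 5.24 and 5.36 in wild-type PBS cells. The nCB difference in knockout cells was 0.08 ± 0.11. Its rise in wild-type cells was small (0.35 ± 0.11, limma adjusted p = 0.0485) and was lost under 15 of 24 alternative settings, among them the omission of any single wild-type array.

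Irf1, Ifih1 and Dhx58 were not called in any comparison. Irf1, a transcription factor best known downstream of interferon gamma, read 9.21, 8.99 and 8.90 in knockout nCB, 9.26, 9.25 and 9.34 in wild-type nCB, 9.62, 9.24 and 9.08 in knockout PBS and 9.32, 9.24 and 9.51 in wild-type PBS cells, with differences of −0.28 ± 0.14 in knockout and −0.07 ± 0.14 in wild-type cells. Of its 3 other detected probes, 2 gave a fall in knockout cells (−0.59, adjusted p = 0.0202, and −0.49, adjusted p = 0.0149, limma over all probes). Ifih1, the cytosolic RNA sensor MDA5, was detected on 4 arrays and read 4.80, 4.27 and 5.11 in knockout nCB, 4.61, 4.38 and 4.55 in wild-type nCB, 4.37, 4.17 and 4.51 in knockout PBS and 4.36, 4.58 and 4.53 in wild-type PBS cells, so the groups overlapped. Dhx58, the related helicase LGP2, read 5.68, 6.10 and 5.33 in knockout nCB, 5.95, 6.04 and 6.05 in wild-type nCB, 5.98, 6.13 and 5.94 in knockout PBS and 6.31, 6.25 and 5.96 in wild-type PBS cells. Its estimate of −0.31 ± 0.16 was the lowest of the 34 genes for nCB in knockout cells.

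**Figure D2:**
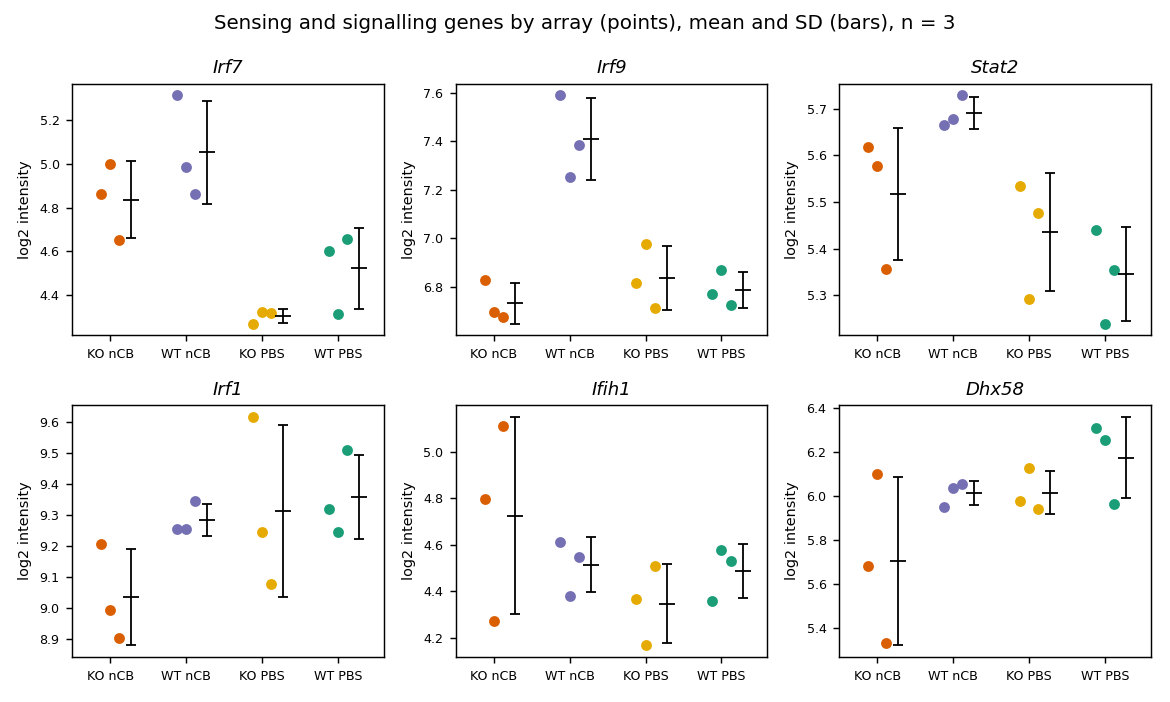
Log2 intensity of the 6 sensing and signalling genes on each array (points), with the mean and SD of the 3 arrays of a group (bars) and a separate axis for each gene. Irf7 is higher on nCB than on PBS arrays of the same genotype, and Irf9 is higher on the wild-type nCB arrays alone, with means of 6.73 in knockout nCB and 7.41 in wild-type nCB cells.

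The IFIT proteins bind foreign RNA and hold back its translation. Ifit2 read 4.86, 5.01 and 4.80 in knockout nCB cells, 6.07, 5.77 and 6.34 in wild-type nCB cells, 4.90, 4.48 and 4.38 in knockout PBS cells and 4.70, 4.57 and 4.64 in wild-type PBS cells. Only the wild-type nCB arrays stood apart. The nCB difference of Ifit2 was 0.30 ± 0.16 in knockout cells (limma adjusted p = 0.220), and in wild-type cells it rose 2.67-fold (1.42 ± 0.16, limma adjusted p = 8.87e-06). Ifit3 read 6.07, 5.98 and 5.90 in knockout nCB, 7.24, 6.42 and 7.14 in wild-type nCB, 5.28, 5.56 and 5.48 in knockout PBS and 5.73, 5.83 and 5.56 in wild-type PBS cells. It rose in both genotypes, by 0.54 ± 0.17 in knockout cells (limma adjusted p = 0.0464, lost under 17 of 24 settings) and by 1.23 ± 0.17 in wild-type cells (limma adjusted p = 1.16e-04). A second Ifit3 probe was detected on 5 arrays, among them all 3 wild-type nCB arrays, through which it passed the detection filter. That probe was not called in knockout cells (0.13, limma adjusted p = 0.621) and rose in wild-type cells (0.67).

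Some enzymes of the OAS family, though not all of its members, make the oligoadenylate signal that activates the antiviral RNase L. Of 3 measured members, 1 rose in knockout cells, against 8.69% of all features, and 3 rose in wild-type cells, against 8.88%. Oasl2 read 6.69, 6.38 and 6.25 in knockout nCB, 7.28, 6.88 and 7.60 in wild-type nCB, 5.78, 5.59 and 4.71 in knockout PBS and 5.48, 5.94 and 5.88 in wild-type PBS cells. It rose 2.12-fold in knockout cells (1.08 ± 0.24, limma adjusted p = 0.00623) and 2.80-fold in wild-type cells (1.49 ± 0.24, limma adjusted p = 4.40e-04). A second detected Oasl2 probe showed neither rise (−0.08 and 0.16). Oasl1, which in mouse restrains Irf7 translation, read 4.86, 4.35 and 4.72 in knockout nCB, 5.32, 5.29 and 5.23 in wild-type nCB, 4.47, 4.29 and 4.61 in knockout PBS and 4.54, 4.71 and 4.46 in wild-type PBS cells. Its difference was 0.19 ± 0.14 in knockout cells, beside a rise of 0.71 ± 0.14 in wild-type cells. Oas2 differed by 0.30 ± 0.16 in knockout cells and rose by 0.58 ± 0.16 in wild-type cells (limma adjusted p = 0.0201, lost under 6 of 23 settings).

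Ifi205, of the PYHIN family of nuclear proteins that includes DNA sensors, showed the largest nCB estimate of the 34 genes in wild-type cells. It read 5.26, 5.00 and 6.03 in knockout nCB, 6.80, 6.83 and 6.58 in wild-type nCB, 4.72, 4.72 and 4.42 in knockout PBS and 4.94, 4.80 and 4.45 in wild-type PBS cells. The knockout nCB arrays lay between the wild-type nCB and the PBS arrays without overlap, and array 3 was well above the other two. Ifi205 rose 1.75-fold with nCB in knockout cells (0.81 ± 0.21, limma adjusted p = 0.0157) and 4.02-fold in wild-type cells (2.01 ± 0.21, limma adjusted p = 5.75e-06). The knockout call was lost under 5 of 23 settings, including the omission of knockout nCB array 3 or knockout PBS array 3. A second probe gave −0.08 in knockout and 0.56 in wild-type cells (limma adjusted p = 0.0366 for the wild-type value). That probe was detected on 5 arrays, among them all 3 wild-type nCB arrays, through which it passed the detection filter. Close relatives exist in this family, as among the OAS, Gbp and Trim30 genes, so a probe may also read a relative.

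Of 6 measured interferon-inducible GTPases, which attack the vacuoles that shelter intracellular microbes, 0 rose in knockout cells, against 8.69% of all features, and 4 in wild-type cells, against 8.88%. Gbp3 read 6.11, 6.15 and 6.66 in knockout nCB, 7.29, 6.84 and 7.43 in wild-type nCB, 5.93, 5.77 and 5.96 in knockout PBS and 5.96, 6.03 and 6.28 in wild-type PBS cells. It differed by 0.42 ± 0.17 in knockout cells (limma adjusted p = 0.119) and rose by 1.10 ± 0.17 in wild-type cells (limma adjusted p = 2.77e-04). The second Gbp3 probe was called in both genotypes (0.46 and 1.26). Gbp2 differed by 0.02 ± 0.14 in knockout cells and rose by 0.60 ± 0.14 in wild-type cells, where its second probe was not called (0.41, limma adjusted p = 0.171). The second Gbp2 probe was detected on 4 arrays. For Igtp the values were 0.25 ± 0.14 in knockout cells and a rise of 0.50 ± 0.14 in wild-type cells, lost under 7 of 24 settings.

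Gm4951, annotated as a predicted member of the same GTPase group, followed another course. It read 5.09, 5.25 and 4.91 in knockout nCB, 5.66, 5.38 and 5.26 in wild-type nCB, 5.01, 5.05 and 5.02 in knockout PBS and 4.27, 4.46 and 4.41 in wild-type PBS cells. The wild-type PBS arrays, on which the probe was not detected, were below the other 9. The change with nCB was 0.06 ± 0.13 in knockout cells, and in wild-type cells Gm4951 rose by at least 1.86-fold (fitted 1.05 ± 0.13, limma adjusted p = 2.44e-05). Irgm1, a regulator of the group, was not called by the probe used (0.31 ± 0.17 in knockout and 0.48 ± 0.17 in wild-type cells). Its other probe gave 0.05 in knockout cells and rose in wild-type cells (0.79, limma adjusted p = 3.03e-04), so the probes disagreed. Ifi47 was not called in any comparison.

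Isg15 is a ubiquitin-like protein attached to other proteins, and Usp18 removes it and also restrains the interferon receptor. Usp18 read 6.38, 6.04 and 6.68 in knockout nCB, 7.65, 7.22 and 7.57 in wild-type nCB, 5.37, 4.55 and 4.22 in knockout PBS and 5.60, 5.30 and 5.66 in wild-type PBS cells. The nCB arrays lay above the PBS arrays in each genotype, and wild-type nCB arrays above knockout nCB arrays. The probe used for Usp18 was detected on 1 of the 3 knockout PBS arrays, so the knockout fold is read partly against background. Usp18 rose 3.14-fold in knockout cells (1.65 ± 0.24, limma adjusted p = 1.78e-04) and 3.90-fold in wild-type cells (1.96 ± 0.24, limma adjusted p = 2.59e-05). A second Usp18 probe was not called in knockout cells (0.45, limma adjusted p = 0.140) and rose in wild-type cells (0.86). Isg15 read 5.00, 5.52 and 5.94 in knockout nCB, 6.74, 5.88 and 5.73 in wild-type nCB, 4.70, 4.73 and 4.65 in knockout PBS and 5.04, 4.69 and 5.31 in wild-type PBS cells. It rose by 0.79 ± 0.25 in knockout cells (limma adjusted p = 0.0450, lost under 12 of 24 settings) and by 1.10 ± 0.25 in wild-type cells (limma adjusted p = 0.00614). Dtx3l, a ubiquitin ligase, Parp14, an ADP-ribosyltransferase, and Trim30a, a regulator of inflammatory signalling, were not called in any comparison.

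Among enzymes and binders of nucleic acids, Rsad2 (viperin), which makes a chain-terminating nucleotide, read 6.08, 6.21 and 6.44 in knockout nCB, 7.53, 6.74 and 7.42 in wild-type nCB, 5.34, 5.28 and 4.90 in knockout PBS and 6.09, 5.22 and 5.43 in wild-type PBS cells. It rose by 1.07 ± 0.23 in knockout cells (limma adjusted p = 0.00392) and by 1.65 ± 0.23 in wild-type cells (limma adjusted p = 8.43e-05). Cmpk2, a mitochondrial nucleotide kinase encoded beside Rsad2, rose by 0.65 ± 0.18 in knockout cells (lost under 7 of 23 settings) and 0.86 ± 0.18 in wild-type cells. Eif2ak2 (PKR), the kinase that stops translation on double-stranded RNA, read 7.17, 7.33 and 7.27 in knockout nCB, 7.47, 7.29 and 7.57 in wild-type nCB, 6.87, 6.95 and 6.77 in knockout PBS and 7.34, 7.32 and 7.27 in wild-type PBS cells. Its knockout PBS arrays were the lowest 3 of the 12. Eif2ak2 rose in knockout cells (0.39 ± 0.11, limma adjusted p = 0.0243, lost under 6 of 24 settings), beside a difference of 0.13 ± 0.11 in wild-type cells.

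Samhd1, a hydrolase of deoxynucleotides, was the only gene of the 34 called lower with nCB by the probe used. It read 8.47, 8.55 and 8.37 in knockout nCB, 8.52, 8.46 and 8.64 in wild-type nCB, 8.72, 8.75 and 8.65 in knockout PBS and 8.98, 9.10 and 8.88 in wild-type PBS cells. The difference was −0.24 ± 0.11 in knockout cells (limma adjusted p = 0.148), and it fell in wild-type cells (−0.44 ± 0.11, limma adjusted p = 0.00867). The fall was not called when arrays were scaled to a common median. Adar, an RNA-editing enzyme, Isg20, an exonuclease, and Zbp1, a sensor of left-handed nucleic acid, were not called in any comparison.

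At the membrane, Bst2 (tetherin), which holds budding virus on the cell, read 6.26, 6.20 and 6.27 in knockout nCB, 7.68, 7.51 and 6.78 in wild-type nCB, 5.34, 5.93 and 5.77 in knockout PBS and 6.23, 5.55 and 6.25 in wild-type PBS cells. It differed by 0.57 ± 0.23 in knockout cells (limma adjusted p = 0.113) and rose by 1.32 ± 0.23 in wild-type cells (limma adjusted p = 7.21e-04). Ifitm3, which blocks viral entry, was not called in any comparison (0.27 ± 0.17 in knockout and −0.05 ± 0.17 in wild-type cells). Sp100, a nuclear body protein, rose in knockout cells (0.50 ± 0.16, limma adjusted p = 0.0427, lost under 14 of 24 settings) beside 0.32 ± 0.16 in wild-type cells. Ifi35 was not called in any comparison.

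**Figure D3:**
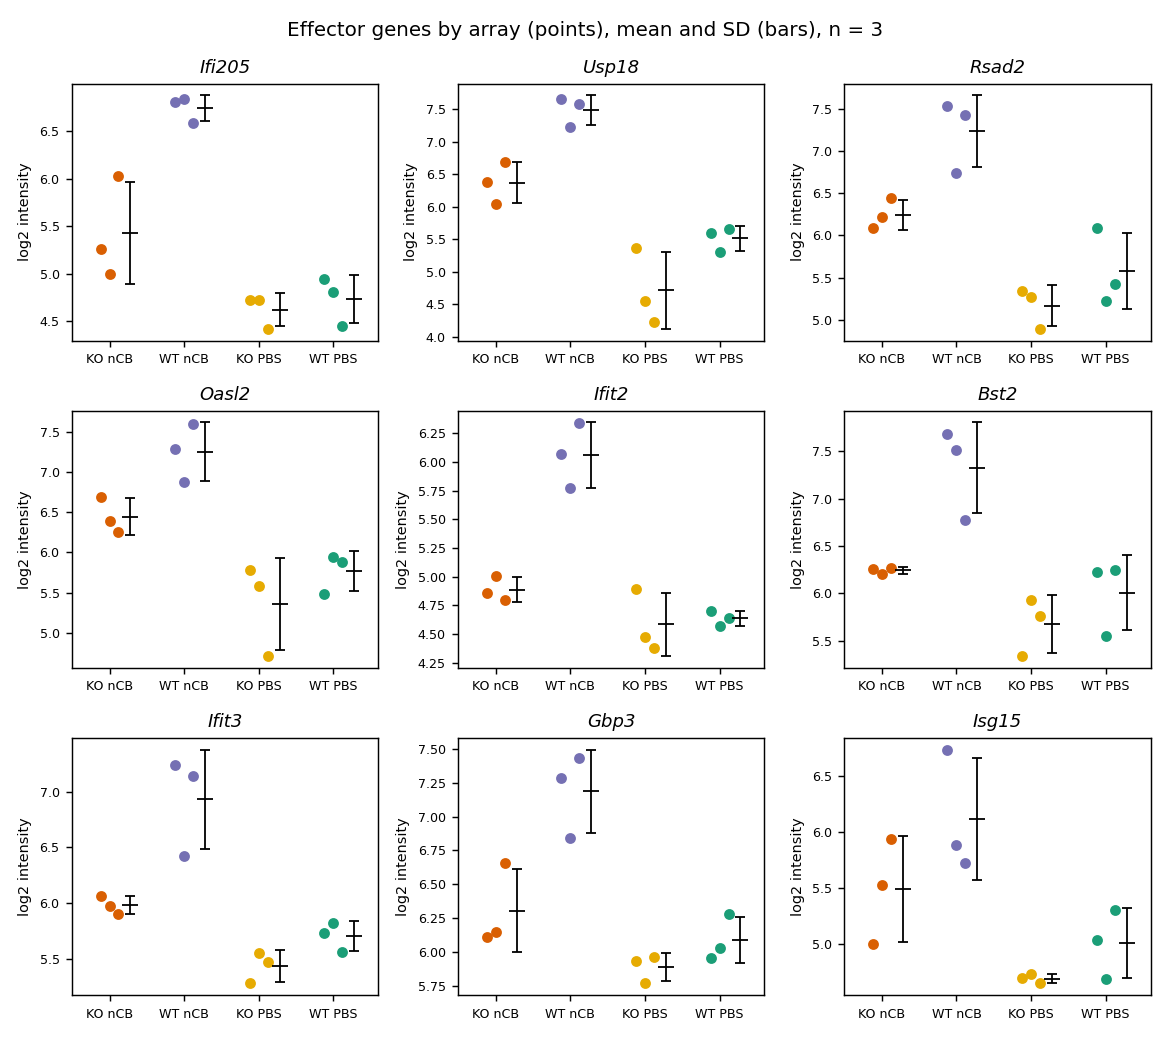
Log2 intensity of 9 effector genes on each array (points), with the mean and SD of the 3 arrays of a group (bars) and a separate axis for each gene. For all 9, the wild-type nCB mean is the highest of the 4 groups, for example 6.74 for Ifi205 in wild-type nCB and 5.43 in knockout nCB cells.

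**Figure D4:**
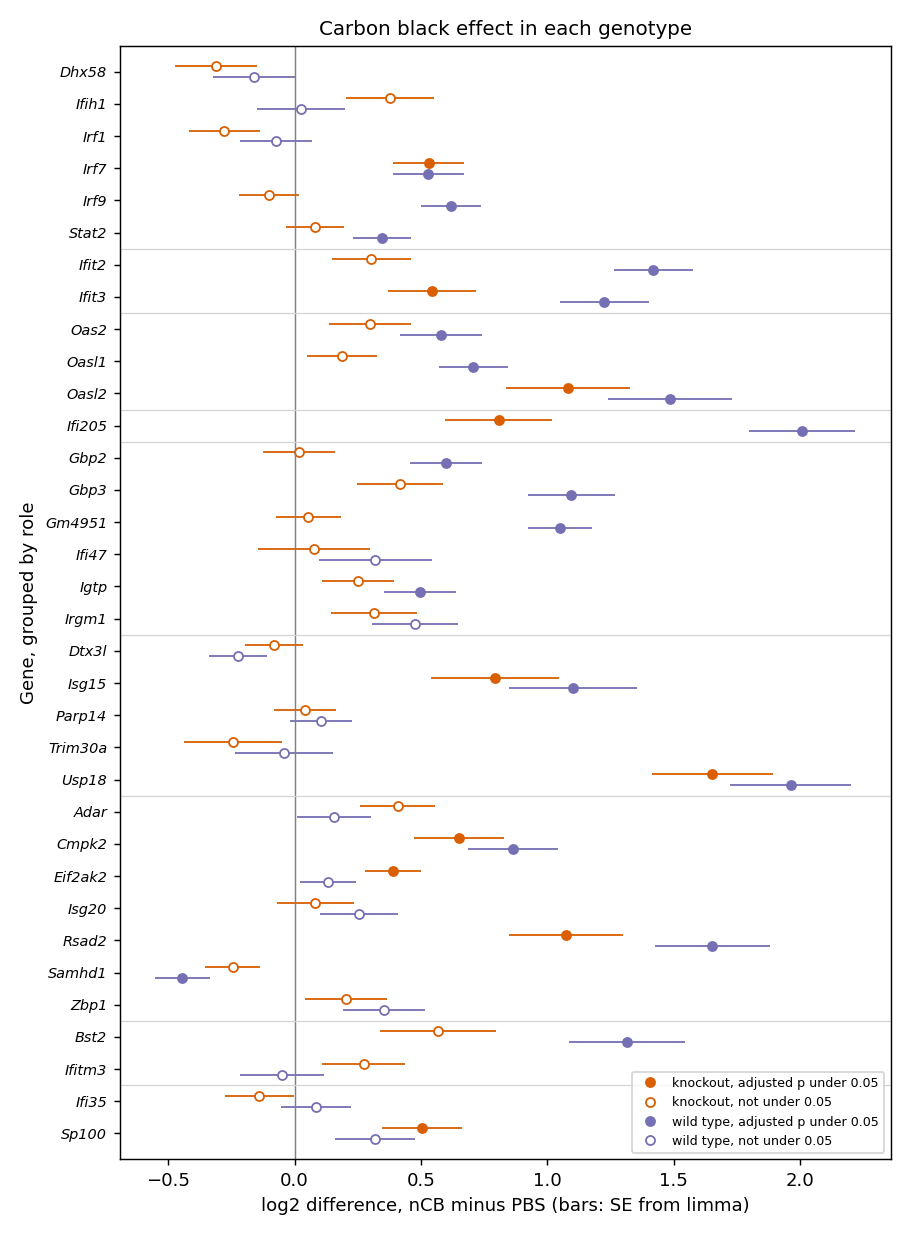
Log2 difference, nCB minus PBS, of each gene in knockout cells (orange) and wild-type cells (purple), with bars for the SE from limma and filled points for an adjusted p under 0.05. Ifi205, Usp18 and Rsad2 lie farthest right in wild-type cells at 2.01, 1.96 and 1.65.

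The median nCB estimate of the sensing and signalling genes was below that of the effectors in both genotypes. Their median nCB difference was −0.01 in knockout and 0.18 in wild-type cells, and that of the effectors was 0.30 and 0.54. The medians are descriptions, since genes are not replicates, and the group of 6 held both Irf7, which rose in each genotype, and Dhx58 and Irf1, with estimates below 0 in each.

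Fewer genes were called between knockout and wild-type cells with PBS than with nCB. With nCB, 9 of the 34 genes were lower in knockout than in wild-type cells, against 1.49% of all features, and 0 were higher, against 1.93%. These were Ifit2 (−1.17 ± 0.16, limma adjusted p = 5.65e-04), Ifi205 (−1.31 ± 0.21), Irf9 (−0.68 ± 0.12), Ifit3 (−0.95 ± 0.17), Gbp3 (−0.88 ± 0.17), Bst2 (−1.08 ± 0.23), Usp18 (−1.11 ± 0.24), Oasl1 (−0.63 ± 0.14) and Rsad2 (−0.99 ± 0.23, limma adjusted p = 0.0281), with the other 7 adjusted p-values between these. In fold terms Ifi205 was 2.48-fold and Ifit2 2.25-fold lower in knockout cells. For 16 of the 34 genes all knockout nCB arrays lay below the wild-type nCB arrays, against 9.35% of all features, and for 0 genes above. The estimate was below 0 for 31 of the 34 genes, against 48.7% of all features, with a median of −0.32. Second probes of Ifit2, Gbp3, Irf9 and Usp18 were called lower as well (limma adjusted p 6.60e-04 to 0.0275), and those of Ifi205 and Ifit3 were not (adjusted p = 0.0624 and 0.0540). The second Oasl1 probe was also called (limma adjusted p = 0.00276). It was detected on all 3 wild-type nCB arrays, 1 knockout nCB array and no PBS array. It thus passed the filter only through the group where it is high, and its call is no separate support. The unused Irgm1 probe was also lower (−0.57, limma adjusted p = 0.0195), but the probe used for Irgm1 was not (0.07, limma adjusted p = 0.898).

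The count of 9 was 4 without wild-type nCB array 1 and 4 without knockout nCB array 2. It was 1 in the authors' processed matrix, where only Irf9 was called, and 4 with no filter on detection. The comparison with wild-type nCB shares its arrays with the nCB effect in wild-type cells, so a high value on a wild-type nCB array enters both.

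With PBS, 1 gene was higher in knockout cells, against 0.412% of all features, and 0 were lower, against 0.533%. The gene was Gm4951, which was at least 1.41-fold higher in knockout PBS than in undetected wild-type PBS cells (fitted 0.65 ± 0.13, limma adjusted p = 0.0200). The call was lost when any 1 of the 6 PBS arrays was left out. Usp18 had the lowest estimate of the 34 genes (−0.80 ± 0.24, limma adjusted p = 0.201), and for Eif2ak2, Ifitm3, Ifit3 and Samhd1 the knockout PBS arrays lay below the wild-type PBS arrays without a call, against 7.04% of all features. The median difference was −0.15 over the 34 genes, beside −0.01 over all features, and 26 estimates were below 0, against 51.4% of all features.

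**Figure D5:**
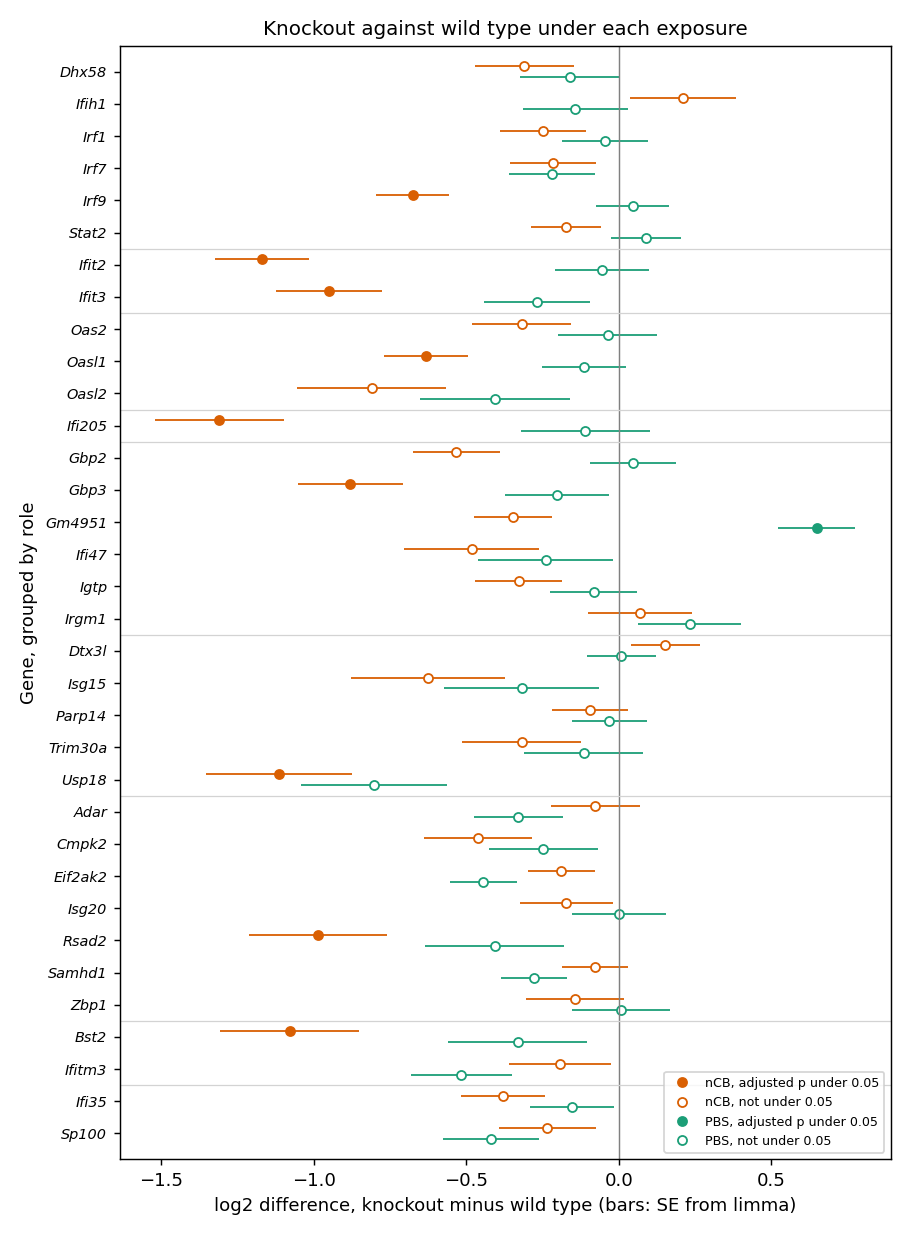
Log2 difference, knockout minus wild type, of each gene with nCB (orange) and with PBS (green), with bars for the SE from limma and filled points for an adjusted p under 0.05. The 9 filled nCB points lie between −1.31 and −0.63, and the only filled PBS point is Gm4951 at 0.65.

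The interaction asks whether the nCB effect differed between the genotypes. It was called for 1 of the 34 genes, lower in knockout, against 0.0889% of all features, and for 0 genes higher, against 0.0404%. Gm4951 had a difference of effects of −0.996 ± 0.18 (limma adjusted p = 0.0459), which was lost under 16 of 22 settings, including the omission of knockout nCB array 1 or 3, wild-type nCB array 1 or 2 or any single PBS array, and rests on wild-type PBS arrays where the probe was not detected. The next smallest p-values belonged to Ifit2 (−1.12 ± 0.22, limma adjusted p = 0.0743), Irf9 (−0.72 ± 0.17, 0.152), Ifi205 (−1.20 ± 0.30, 0.174), Gbp2 (−0.58 ± 0.20, 0.333) and Gbp3 (−0.68 ± 0.24, 0.350), none of them called. The nCB estimate was smaller in knockout than in wild-type cells for 26 of the 34 genes, against 47% of all features, and the median difference of effects was −0.23. A call in 1 genotype and not in the other is thus not shown to be a difference between genotypes for 33 of the 34 genes.

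Across the 4 groups, wild-type nCB cells had the highest mean for 26 of the 34 genes, against 25.1% of all features, and knockout PBS cells the lowest for 21, against 23.3%. The full order of wild-type nCB over knockout nCB over wild-type PBS over knockout PBS held for 17 genes, against 7.46% of all features. On each array the median over the 34 genes of the log2 intensity, centred on the mean of each gene, averaged −0.01 ± 0.02 in knockout nCB, 0.39 ± 0.08 in wild-type nCB, −0.26 ± 0.05 in knockout PBS and −0.10 ± 0.02 in wild-type PBS cells (SD, n = 3 each). No array of a group overlapped with another group in this measure.

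The rest of the pathway was read from lists of interferons, receptors, upstream genes, regulators and further targets. Of 11 listed interferon genes, 8 had no listed probe and Ifna1 and Ifng were measured, each detected on 5 arrays and not called, with nCB differences for Ifna1 of 0.32 ± 0.17 in knockout and 0.09 ± 0.17 in wild-type cells. Of 8 measured receptor chains and kinases, 3 rose and 1 fell in knockout cells, and 4 rose and 0 fell in wild-type cells. In these comparisons 8.69% of all features rose and 7.29% fell in knockout cells, and 8.88% rose and 9.22% fell in wild-type cells. Ifngr2, a chain of the interferon gamma receptor, rose by 0.88 in knockout and 0.80 in wild-type cells, and Jak2, its kinase, by 0.49 and 0.76. Ifngr1, the partner chain, fell in knockout cells (−0.74, limma adjusted p = 7.76e-04). Ifnar1 had no listed probe.

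Of 17 measured genes upstream of interferon, 1 rose and 2 fell with nCB in knockout cells, and 2 rose and 3 fell in wild-type cells, so 5.88% rose and 11.8% fell in knockout cells, and 11.8% rose and 17.6% fell in wild-type cells. Over all features, 8.69% rose and 7.29% fell in knockout cells, and 8.88% rose and 9.22% fell in wild-type cells, and the list differs from these shares by 2 genes or fewer. Ikbke, a kinase that activates interferon regulatory factors, rose in both (0.69 and 0.68), while Tlr8, an endosomal RNA receptor, fell in both (−1.26 and −0.99), as did Mavs, the adaptor of Ifih1 (−0.47 and −0.59). Of 11 measured negative regulators, 1 rose and 3 fell in knockout cells, and 1 rose and 2 fell in wild-type cells. The share that rose, 9.09% in each genotype, is near the 8.69% and 8.88% of all features, and 27.3% fell in knockout and 18.2% in wild-type cells, against 7.29% and 9.22%. Socs3, an inhibitor of cytokine receptor signalling, rose by 1.38 in knockout and 1.80 in wild-type cells, and Nlrx1, a mitochondrial inhibitor of Mavs, fell (−0.73 and −0.98).

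Of 36 further measured interferon-stimulated genes, 5 rose and 2 fell in knockout cells, and 12 rose and 1 fell in wild-type cells. The shares that rose were 13.9% in knockout and 33.3% in wild-type cells, against 8.69% and 8.88% of all features, and 5.56% and 2.78% fell, against 7.29% and 9.22%. Oas1g rose by 1.53 in knockout and 1.76 in wild-type cells, and Ifi27l2a by 0.75 and 1.07. The chemokine Cxcl9, which draws T cells, averaged 6.17 ± 0.38 in knockout nCB, 7.65 ± 0.35 in wild-type nCB, 6.54 ± 0.24 in knockout PBS and 5.90 ± 0.07 in wild-type PBS cells (SD, n = 3 each). Its nCB effect was −0.37 in knockout cells and a rise of 1.75 in wild-type cells, with a difference of effects of −2.11 (limma adjusted p = 0.00381). Cxcl10, of the same family, was detected on 3 wild-type nCB arrays, 2 knockout nCB arrays and no PBS array. Its fitted difference of effects was −1.11 (limma adjusted p = 0.0396). Cxcl10 passed the filter only through the group where it is high, so this value is no separate support. With nCB, 5 of the 36 genes were lower in knockout cells, against 1.49% of all features, and 0 higher, against 1.93%.

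Of the 11 genes not measured, Ifi203, Mx2 and Ifi44 had no listed probe. Ifit1, Oas1a, Oas3, Ifi204, Mx1, Parp9, Rtp4 and Xaf1 had a probe detected on 1 array each. Just inside the filter were Isg20, detected on 3 arrays, all with nCB, and Ifih1, detected on 4. Of the 34 genes, 24 were detected on all 12 arrays by the probe used.

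Markers of the cell types in the sorted population moved with exposure and genotype. Of 12 measured markers of monocytes and interstitial macrophages, 9 rose with nCB in knockout cells, against 8.69% of all features, and 9 in wild-type cells, against 8.88%. With nCB, 5 of them were lower in knockout than in wild-type cells, against 1.49% of all features (C1qa, C1qb, C1qc, Apoe and Fcgr1). Their mean log2 intensity ran from 7.69 to 8.04 in knockout nCB, 8.16 to 8.40 in wild-type nCB, 6.16 to 6.34 in knockout PBS and 6.41 to 6.45 in wild-type PBS cells. This list therefore ordered the groups as the interferon-stimulated genes did. By group mean log2 intensity, so did the lists below of conventional dendritic cells, plasmacytoid dendritic cells without Bst2 and T and NK cells. In those lists, arrays of different groups overlapped. By the centred median used above for the interferon-stimulated genes, the plasmacytoid list without Bst2 had another order. That measure was −0.13 in knockout nCB and 0.04 in wild-type PBS cells. The alveolar macrophage, neutrophil, B cell and epithelial lists had other orders. Of 11 measured alveolar macrophage markers, 6 fell and 1 rose with nCB in knockout cells, where 7.29% of all features fell, and 7 fell and 1 rose in wild-type cells, where 9.22% did, with means of 8.81 to 8.94 in knockout nCB, 8.16 to 8.64 in wild-type nCB, 9.40 to 9.49 in knockout PBS and 9.39 to 9.47 in wild-type PBS cells. Of 10 measured markers of conventional dendritic cells, 4 rose and 0 fell in knockout cells, and 5 rose and 1 fell in wild-type cells, beside the same 8.69% and 8.88% of all features that rose, with means of 5.91 to 6.47, 6.38 to 6.58, 5.24 to 5.47 and 5.70 to 5.81 in the same order of groups. Zbtb46, a defining factor of that type, was detected on 2 arrays and not measured. Between genotypes under nCB, 3 of the 11 alveolar macrophage markers were higher in knockout cells, against 1.93% of all features, and 0 were lower, against 1.49%. In the same comparison 2 of the 10 conventional dendritic markers were lower in knockout cells and 0 were higher.

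Plasmacytoid dendritic cells are a main source of type I interferon, and Bst2 is also one of their markers. Without Bst2, 2 of their 7 measured markers rose with nCB in knockout cells and 1 rose in wild-type cells, none was called between genotypes under nCB, and the means were 5.86 to 6.06 in knockout nCB, 6.02 to 6.20 in wild-type nCB, 5.44 to 6.16 in knockout PBS and 5.58 to 6.51 in wild-type PBS cells. Of 8 neutrophil markers, 3 rose in knockout cells, and 1 rose and 3 fell in wild-type cells, and of 7 T and NK cell markers 1 rose in wild-type cells. Of 5 B cell markers 2 fell in wild-type cells. Of 9 epithelial markers, 2 rose in knockout cells, and 1 rose and 1 fell in wild-type cells. All these counts stand beside 8.69% of all features that rose and 7.29% that fell in knockout cells, and 8.88% and 9.22% in wild-type cells, and several, such as the 12.5% of neutrophil markers and 11.1% of epithelial markers that rose in wild-type cells, are near them. The part of all these cell types in the values of the interferon-stimulated genes was not tested.

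The core shown in the printed promoters was in 14 of the 28 measured genes that have a listed window. Counting only genes with a window, it was in 9 of 15 (60.0%) that rose with nCB in wild-type cells and in 5 of 13 (38.5%) that did not, and in 5 of 8 (62.5%) that were lower in knockout under nCB. The median nCB difference of the 14 genes with the core was 0.38 in knockout and 0.55 in wild-type cells, and of the 14 without it 0.14 and 0.32. A match describes the letters of the window, and binding was not measured.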

How the data were processed

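RNA of lung CD11c+ cells was measured on 12 Illumina arrays, 3 in each of 4 groups assigned from the labels. GenomeStudio is named by the submitters' processing notes, with its version not given. The deposited table holds, for 45281 probes, an intensity on every array and, per the file headers, a detection p-value beside it. The authors' processed matrix holds log2 values of 24952 probes and served as an alternative; how the authors normalized it is not given in the sources used here.

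From the intensities, neqc of limma 3.58.1 (R 4.3.3) corrected the background from the detection p-values, with an offset of 16, quantile-normalized the arrays and took log2. A probe was kept if 3 or more of the 12 arrays gave a detection p under 0.05 (17346 probes), and the probe with the highest mean stood for each symbol, leaving 12380 features. Symbols came from the platform annotation, which names 1 symbol for 20501 probes. limma fitted a mean per group to all 12 arrays, with two-sided tests of 5 comparisons and Benjamini-Hochberg adjustment over all features, and values are log2 differences ± SE. Further probes of a gene were read from a fit over all kept probes. Exact permutation of 3 against 3 arrays reaches no p below 0.1, so none was run. The fit was tested on simulated data. Where no array of a group detected a probe, the fold is a bound taken against the lowest detected intensity of each array, or the probe's own value if higher.

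The genes, the lists and their roles were chosen with earlier results of these data known, so list counts carry no p and are read against the share of all features. Named genes were all sensing and signalling members, the called members with the smallest p in each comparison (up to 12), those with the smallest interaction p (up to 6), the 3 lowest nCB estimates, and up to 4 genes of each pathway and marker list. Printed promoters were those of the 3 members called in both genotypes with the largest mean nCB estimate and a core, and the 1 such member without a core. Replicate numbers were not used to pair arrays across groups. The deviations from group means correlated above 0.1 in 5 of 18 same-number pairs (range −0.30 to 0.22). With 3 arrays per group this cannot exclude a pairing, and the labels state none. Mean intensity per array ran from 156 to 218, arrays of a group correlated at 0.987 to 0.993 across probes, and the number of arrays limits the precision. Alternatives covered scaling, background, the detection filter, the choice of probe, array weights, a replicate block and leaving out each array.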

Additional observations from a re-analysis of the deposited data

Results flagged for a closer look

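Gm4951 was the only one of the 34 genes whose nCB effect differed between the genotypes by the interaction test. The difference of effects, knockout minus wild type, was −0.996 on the log2 scale (limma adjusted p = 0.0459), from a change of 0.06 in knockout and 1.05 in wild-type cells. The wild-type PBS arrays, at 4.27, 4.46 and 4.41, did not detect the probe, and the call was lost under 16 of 22 alternative settings.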

How the results depend on the processing

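Over 24 alternatives, 12 of the 40 calls of single genes held in every one that could be computed, 0 reversed, and uncalled estimates changed sign 21 times. The count of genes higher with nCB in knockout cells (10) was 5 with median scaling, 6 with an offset of 50, 6 without background correction, 5 in the authors' matrix, 5 with no detection filter and 6 with detection on all 12 arrays, and the wild-type count (18) was 10 with the last. The count of genes lower with nCB in knockout cells (0) was 1 without background correction and 2 with the mean of all detected probes, and in wild-type cells (1) 0 with median scaling. Under nCB, the count lower in knockout (9) was 1 in the authors' matrix and 4 with no detection filter. Under PBS, the count higher (1) was 0 with median scaling, offset 50, no background correction and detection on all arrays, and the count lower (0) was 1 with offset 50, no background correction and array weights. The interaction count (1) was 0 with median scaling, offset 50, no background correction, no detection filter, detection on all arrays and every probe as a feature, and 2 with the mean of probes.

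The replicate block, on numbers not shown to pair the arrays, gave 7 genes higher in knockout and 17 in wild-type cells with nCB, and 0 for the interaction count. Leaving out 1 array at a time gave, for genes higher with nCB, 4 to 10 in knockout and 15 to 18 in wild-type cells, and for genes lower 0 to 1 and 1 to 1. The count lower in knockout was 4 to 11 with nCB and 0 to 1 with PBS, the count higher with PBS 0 to 1, and the interaction count 0 to 1.

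The median level of the genes was −0.049 in knockout nCB cells with median scaling, 0.043 in the authors' matrix and −0.035 with the mean of probes. In wild-type nCB cells it was 0.23 with offset 50, 0.17 without background correction, 0.53 in the authors' matrix, 0.28 with no detection filter and 0.29 with detection on all arrays. In knockout PBS cells these 5 gave −0.15, −0.12, −0.36, −0.15 and −0.20, and in wild-type PBS cells −0.075, −0.062, −0.13, −0.069 and −0.031, with −0.0098 under median scaling. Leaving out 1 array gave −0.053 to 0.037 in knockout nCB, 0.35 to 0.43 in wild-type nCB, −0.28 to −0.22 in knockout PBS and −0.14 to −0.062 in wild-type PBS cells.

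The median of sensing genes minus that of effectors (−0.31 in knockout and −0.35 in wild-type cells with nCB) was, in knockout cells, −0.17 without background correction, −0.50 in the authors' matrix, −0.23 with no filter, −0.48 with detection on all arrays, −0.41 with detection p under 0.01 and −0.22 with the mean of probes. In wild-type cells it was −0.27 with median scaling, −0.25 with offset 50, −0.19 without background correction, −0.65 in the authors' matrix, −0.13 with no filter, −0.20 with detection on all arrays and −0.24 with detection p under 0.01. Between genotypes under nCB (0.13) it was 0.29 in the authors' matrix and 0.044 with detection on all arrays. Leaving out 1 array gave −0.37 to −0.29, −0.41 to −0.33 and 0.11 to 0.27 for the same 3 values.

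Median scaling put the median of all features at −0.13 for knockout against wild type with PBS, against −0.01 otherwise, so values under it are read relative to that shift. A slide block was not run, since headers and labels give no slide. Irf7, Gm4951, Ifih1, Isg20, Usp18, Ifi205, Ifit2, Oasl1, Oas2 and Cmpk2 were undetected on some arrays. There, signal over background limits what can be measured. The cause of each change with the processing was not tested.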
